A study of Arabidopsis thaliana with 12 samples.

Results

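Arabinogalactan proteins (AGPs) and fasciclin-like arabinogalactan proteins (FLAs) were taken from the deposited expression table by gene name, as every gene called AGP or FLA followed by a number. This gave 41 genes of 20017, of which 26 were AGPs and 15 were FLAs. The table came from RNA sequencing of roots of Arabidopsis thaliana seedlings, in 4 groups of 3 libraries each, namely crr -Pi, crr +Pi, Col-0 -Pi and Col-0 +Pi. Col-0 is the wild type, and crr is a mutant of CRR, which encodes a membrane protein of the CYBDOM family with ferric reductase activity. Per the study's methods the mutant was 1 T-DNA insertion line in the Col-0 background, and no genetically complemented line is among these groups. All seedlings grew for 7 days on agar plates with dilute Murashige and Skoog salts. The +Pi plates held 1 mM phosphate, and the -Pi plates received none, so that only a residual amount stayed in the medium. Each library was made from the pooled roots of many seedlings.

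The table holds the authors' mean log2 CPM (CPM being read counts scaled to a common library size) of each group. Values of single libraries were not used here, so no difference below has an error, an n or a test, and whether it exceeds the spread between libraries is not known. A difference is the log2 mean of 1 group minus that of another, and a gene is counted as higher or lower where the means differed at least 2-fold, a log2 difference of 1. The percentage of all 20017 genes past the same limit is given with the count of the family in each comparison. Read numbers per library were not used either, so the counting precision of a mean is unknown. CRR itself had means of -0.11 in crr -Pi roots and -0.38 in crr +Pi roots, against 5.64 in Col-0 -Pi roots and 5.99 in Col-0 +Pi roots, which fits the genotype labels.

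AGPs are proteins of the cell surface and the cell wall. Their backbones are rich in proline, alanine, serine and threonine, and prolines that follow alanine, serine or threonine are turned into hydroxyproline and carry large chains of galactose and arabinose. Many members are tethered to the outer face of the plasma membrane by a glycosylphosphatidylinositol (GPI) anchor. Classical AGPs consist of little but this backbone between a signal peptide and an anchor signal, lysine-rich AGPs carry a short basic stretch in it, and AG peptides are very short versions. Chimeric AGPs add a cysteine-rich domain, and FLAs add fasciclin domains, which in animals serve in cell adhesion. FLA group A has a single fasciclin domain and a GPI anchor, and group B has a pair of such domains and no anchor.

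Coding sequences from RefSeq (assembly TAIR10.1) show how the proteins differ. All 41 genes had the same coordinates in RefSeq and in the deposited table, which uses TAIR10. The 10 AG peptides had 58 to 74 codons and 3 or 4 codon pairs for Ala-Pro, Ser-Pro or Thr-Pro. The 11 classical AGPs had 116 to 191 codons, of which 50% to 72.6% stood for Pro, Ala, Ser or Thr, and 8 to 29 such pairs. The 3 lysine-rich AGPs had 28 to 40 pairs. The 6 genes of FLA group A had 246 to 254 codons with 30.8% to 39.4% for these residues, and the 4 of group B had 445 to 489 codons with 25.8% to 28.6%. At least 50% of codons stood for these 4 residues in 15 of the 41 genes, against 72 of 27444 coding genes (0.262%), whose median was 24.9%.

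**Figure D1:**
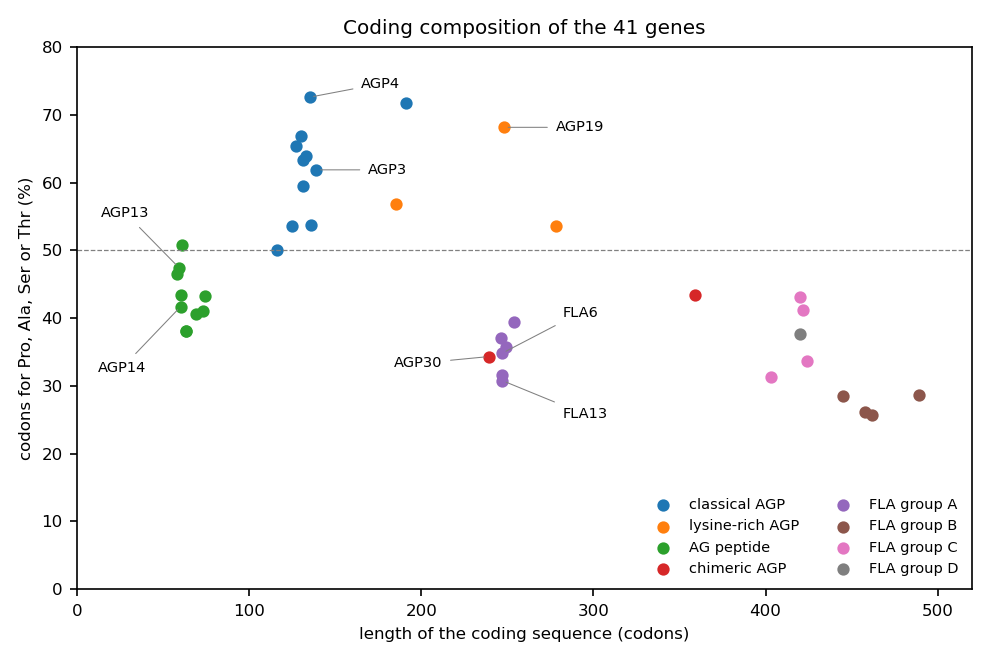
Share of codons for Pro, Ala, Ser or Thr (vertical axis, %) against the length of the coding sequence in codons (horizontal axis), 1 point for each of the 41 genes and 1 colour for each class. The dashed line marks 50%, above or on which lie 15 genes, while the AG peptides gather at 58 to 74 codons and the FLAs lie below 50% at 246 codons or more.

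The complete coding sequences of 4 AG peptides are shown first, since AGP13, AGP14 and AGP21 were more than 2-fold lower in -Pi than in +Pi roots of Col-0 and AGP12, of similar sequence, was not. Capitals mark the codons of Ala-Pro, Ser-Pro and Thr-Pro pairs, and each sequence runs 5′ to 3′ and ends with its stop codon. AGP13 lies at chr4:13317235-13317414 on the minus strand, AGP14 at chr5:22893243-22893425 on the plus strand, AGP21 at chr1:20648634-20648810 on the minus strand and AGP12 at chr3:4409087-4409269 on the plus strand.
AGP13: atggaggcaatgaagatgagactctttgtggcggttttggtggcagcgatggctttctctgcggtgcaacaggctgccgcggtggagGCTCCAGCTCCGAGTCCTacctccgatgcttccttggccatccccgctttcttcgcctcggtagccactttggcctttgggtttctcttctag
AGP14: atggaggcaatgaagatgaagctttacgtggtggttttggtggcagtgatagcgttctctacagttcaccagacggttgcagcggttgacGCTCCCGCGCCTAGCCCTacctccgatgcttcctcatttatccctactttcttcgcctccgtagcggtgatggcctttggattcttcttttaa
AGP21: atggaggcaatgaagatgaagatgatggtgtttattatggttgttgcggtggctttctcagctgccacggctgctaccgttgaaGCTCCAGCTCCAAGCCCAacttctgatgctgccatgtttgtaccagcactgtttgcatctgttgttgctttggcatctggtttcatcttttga
AGP12: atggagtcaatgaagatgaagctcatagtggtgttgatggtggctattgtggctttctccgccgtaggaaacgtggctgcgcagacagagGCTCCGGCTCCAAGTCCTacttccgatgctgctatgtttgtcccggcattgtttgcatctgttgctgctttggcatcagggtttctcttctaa

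In each of the 4 genes the capitals form 1 block, which codes for 2 Ala-Pro pairs followed by 1 Ser-Pro pair. Aligned base by base, AGP13 and AGP14 were 77.0% identical, AGP12 and AGP21 76.6%, and AGP12 and AGP13 74.1%. Among all pairs of the 10 AG peptides the highest identity was that of AGP16 and AGP20, at 84.2%. Despite this likeness, 0 of the 10 AG peptides shared a stretch of 50 bases with another AG peptide, so reads of that length could be told apart between them.

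The stretch of 50 codons within 1 coding exon that held the most such pairs is shown for 4 genes of 3 other classes that were past 2-fold between -Pi and +Pi roots in both genotypes, the classical AGP3, the lysine-rich AGP19 and the FLA group A genes FLA6 and FLA13, with the same use of capitals. They are codons 59 to 108 of AGP3 (chr4:18581181-18581330, minus strand), codons 112 to 161 of AGP19 (chr1:25809631-25809780, plus strand), codons 163 to 212 of FLA6 (chr2:8841149-8841298, plus strand) and codons 168 to 217 of FLA13 (chr5:17761629-17761778, plus strand).
AGP3: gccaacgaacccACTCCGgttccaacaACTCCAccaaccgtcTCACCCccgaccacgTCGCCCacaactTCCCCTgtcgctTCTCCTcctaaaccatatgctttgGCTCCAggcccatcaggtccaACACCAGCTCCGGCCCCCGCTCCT
AGP19: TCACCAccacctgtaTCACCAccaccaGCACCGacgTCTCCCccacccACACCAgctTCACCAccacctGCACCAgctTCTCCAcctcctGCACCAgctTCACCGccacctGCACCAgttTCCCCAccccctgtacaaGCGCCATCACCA
FLA6: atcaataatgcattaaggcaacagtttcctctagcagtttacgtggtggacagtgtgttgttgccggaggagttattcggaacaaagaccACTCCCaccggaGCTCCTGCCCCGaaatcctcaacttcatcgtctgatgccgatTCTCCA
FLA13: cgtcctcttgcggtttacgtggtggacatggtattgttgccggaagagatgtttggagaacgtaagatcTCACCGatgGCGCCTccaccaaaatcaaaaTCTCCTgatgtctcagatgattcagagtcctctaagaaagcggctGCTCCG

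The window of AGP19 held 14 pairs and that of AGP3 held 11, spread along the whole stretch. The windows of FLA6 and FLA13 held 4 pairs each, with none near the start.

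Of the 41 genes 29 had means of at least 4 log2 CPM in all 4 groups, and the share of all genes at that level was not computed. None of the 41 was at the lowest value of the table, and 3 (AGP5, AGP17 and AGP27) had a mean below 1 in at least 1 group. Another 9 genes with AGP or FLA symbols in RefSeq (AGP6, AGP11, AGP23, AGP40, FLA3, FLA5, FLA14, FLA20 and FLA21) were not in the table used. Levels of the family given here are thus those of the measured members only. AGP6, AGP11, AGP23, AGP40, FLA3 and FLA14 are known from pollen, and of the 4 pollen markers VGD1, VGDH1, PPME1 and RALFL8, 0 were in the table used. Summed over the 41 genes the group means came to 3950 CPM in crr -Pi roots and 4146 CPM in crr +Pi roots, and to 3642 CPM in Col-0 -Pi roots and 4143 CPM in Col-0 +Pi roots.

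Levels were compared between genes per kilobase of exon, as the mean of the 4 groups. AGP31, a chimeric AGP known from vascular tissue, had the highest level of the family at 8.90 log2 CPM per kb, above 99.6% of the 19884 genes with a known exon length. Its group means were 9.41 log2 CPM in crr -Pi roots, 9.52 in crr +Pi roots, 9.51 in Col-0 -Pi roots and 9.43 in Col-0 +Pi roots, so they lay within 0.11 log2 units of each other. The next were AGP2 at 8.04, FLA9 at 7.78, AGP9 at 7.62, AGP3 at 7.57, AGP4 at 7.39, FLA2 at 7.11, AGP24 at 6.79, AGP15 at 6.68 and FLA7 at 6.68 log2 CPM per kb. AGP2 had 8.14 log2 CPM in crr -Pi roots, 7.44 in crr +Pi roots, 7.97 in Col-0 -Pi roots and 7.58 in Col-0 +Pi roots. FLA2 had 7.85 in crr -Pi roots, 8.14 in crr +Pi roots, 7.83 in Col-0 -Pi roots and 8.18 in Col-0 +Pi roots. The 4 means of AGP24 and AGP15, both AG peptides, and of FLA7 differed less. AGP24 had 6.26 in crr -Pi roots, 6.14 in crr +Pi roots, 6.14 in Col-0 -Pi roots and 6.37 in Col-0 +Pi roots. AGP15 had 6.88 in crr -Pi roots, 6.55 in crr +Pi roots, 6.82 in Col-0 -Pi roots and 6.65 in Col-0 +Pi roots. FLA7 had 7.46 in crr -Pi roots, 7.53 in crr +Pi roots, 7.31 in Col-0 -Pi roots and 7.59 in Col-0 +Pi roots, and it belongs to FLA group A like FLA9. The genes with the lowest level per kb were AGP17 at 0.29, AGP5 at 1.31, AGP27 at 1.76 and AGP41 at 2.03. By class, the medians were 7.77 log2 CPM per kb for the 2 chimeric AGPs, 5.95 for the classical AGPs, 5.78 for FLA group C, 5.72 for group B, 5.70 for the AG peptides, 4.15 for FLA group A and 2.87 for the lysine-rich AGPs, and FLA4, the member of group D, had 3.51. Ranges within classes were wide, from 1.31 to 8.04 among classical AGPs and from 2.69 to 7.78 in FLA group A, and the order of neighbouring genes or classes could not be set against the spread between libraries.

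**Figure D2:**
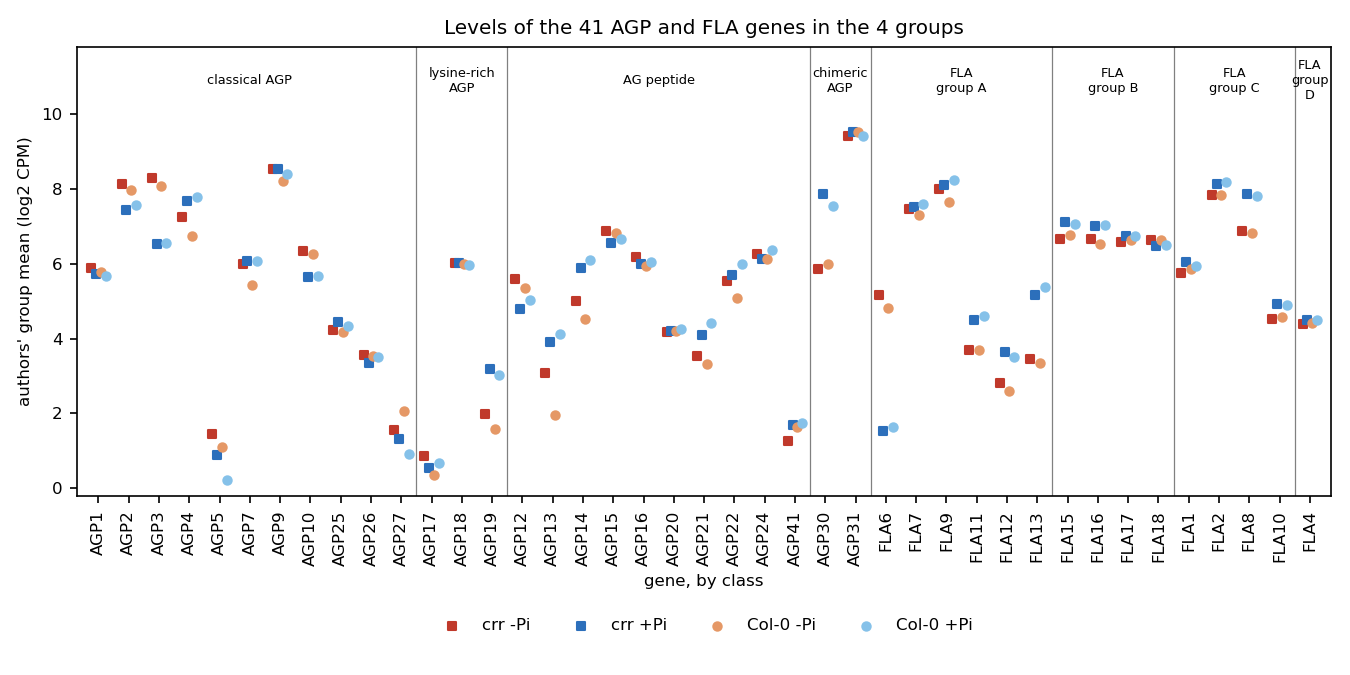
Authors' group means (vertical axis, log2 CPM) of the 41 genes (horizontal axis, by class), with squares for crr, circles for Col-0, red and orange for -Pi and dark and light blue for +Pi. The 4 means of AGP31 lie together near the top at 9.41 to 9.52, whereas FLA6 and AGP3 have both -Pi means above both +Pi means, and FLA13, AGP14 and AGP30 have both below.

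The response to missing phosphate was compared within each genotype, as -Pi minus +Pi. In both genotypes FLA6 and AGP3 were higher in -Pi roots, and FLA13, AGP19 and AGP30 were lower. Of the 41 genes, 2 were higher and 3 lower in crr, against 5.06% and 3.62% of all genes. In Col-0, 3 were higher and 7 lower, against 4.19% and 2.79% of all genes. The share of lower genes was thus 7.32% in crr and 17.1% in Col-0, and the median difference was -0.11 in crr and -0.20 in Col-0 against 0.01 and 0.02 for all genes. The 7 genes lower in Col-0 were 6 AGPs and FLA13. Within 0.5 log2 units of zero lay 26 of 41 genes (63.4%) in crr and 22 of 41 (53.7%) in Col-0, fewer than the 78.2% and 81.2% of all genes. Among the 18383 genes with a group mean of at least 1 log2 CPM, which include 40 of the 41, 3.91% were higher and 2.81% lower in crr, and 3.32% and 2.11% in Col-0. Differences were above zero in 16 of 41 genes in crr and 13 of 41 in Col-0, against 51.4% and 54.3% of all genes. Of the 26 AGPs, 14 were above zero in crr and 11 in Col-0, and of the 15 FLAs 2 in each. The median difference of the AGPs was 0.02 in crr and -0.11 in Col-0, and that of the FLAs -0.29 and -0.33. As a check of the media, the phosphate starvation genes IPS1, SPX1, SPX3, PECP1 and PAP17 were all higher in -Pi roots of both genotypes. The median difference was 8.86 in crr, that of IPS1, and 8.47 in Col-0, that of SPX3. Being of different genes, these medians do not compare the genotypes, and gene by gene 1 of 5 had a larger difference in crr. As roots were sampled whole, a lower mean can come from fewer cells of a type or from less RNA per cell, which cannot be told apart.

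**Figure D3:**
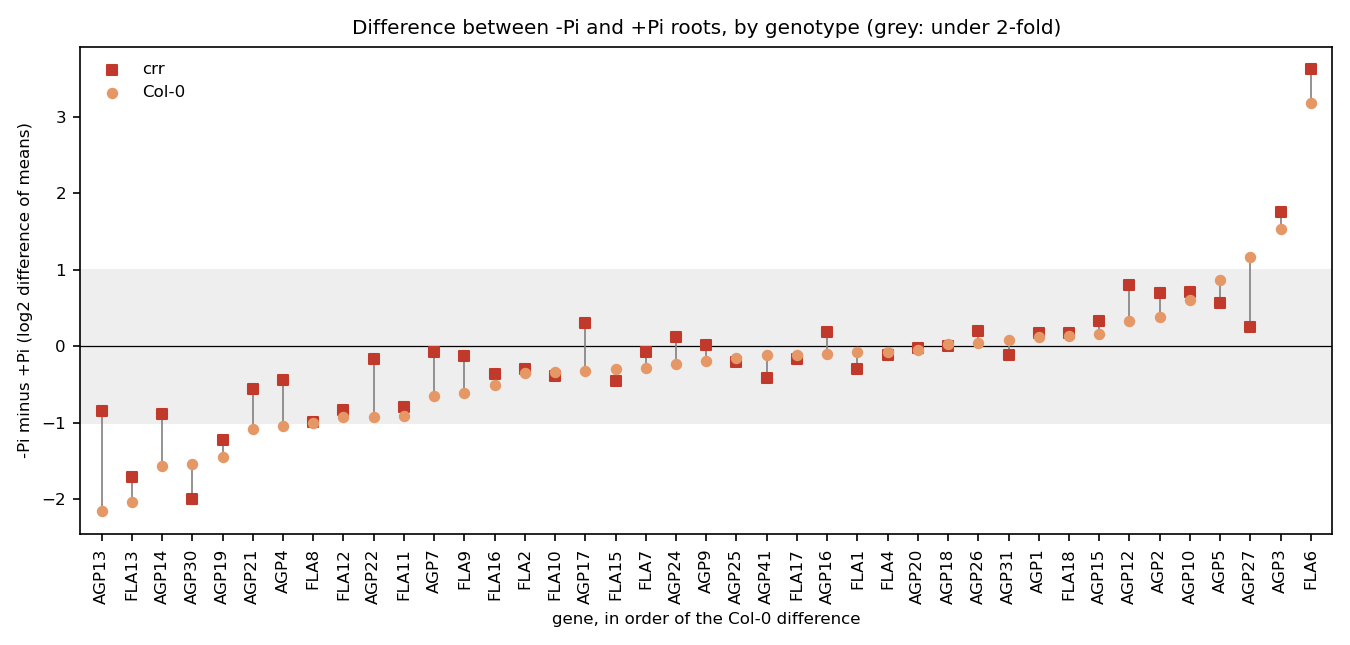
Difference between -Pi and +Pi roots (vertical axis, log2) for the 41 genes in order of the Col-0 value, with red squares for crr, orange circles for Col-0 and a line joining the pair of values of a gene. The grey band holds differences under 2-fold, and FLA6 stands far above it at 3.63 in crr and 3.18 in Col-0 while AGP13 shows the widest gap between genotypes at the low end, with -0.85 in crr and -2.16 in Col-0.

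FLA6 (AT2G20520, chromosome 2, 8840557 to 8841565) had the highest difference of the family in both genotypes. Its means were 5.15 log2 CPM in crr -Pi roots and 1.53 in crr +Pi roots, a difference of 3.63 (12.3-fold), and 4.82 in Col-0 -Pi roots and 1.65 in Col-0 +Pi roots, a difference of 3.18 (9.05-fold). Both +Pi means were low. Both -Pi means lay above those of FLA11, FLA12 and FLA13 and below those of FLA7 and FLA9, the other genes of its class. The same held per kb of exon. A difference at least as high was found in 0.495% of all genes in crr and 0.609% in Col-0. FLA6 shared 0 stretches of 50 bases with another transcript.

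AGP3 (AT4G40090, chromosome 4, 18580827 to 18581696), a classical AGP, was abundant in every group and higher still without phosphate. Its means were 8.29 log2 CPM in crr -Pi roots and 6.53 in crr +Pi roots, a difference of 1.75 (3.37-fold), and 8.09 in Col-0 -Pi roots and 6.56 in Col-0 +Pi roots, a difference of 1.53 (2.89-fold). AGP27, another classical AGP, was past the limit in Col-0, with 2.07 log2 CPM in Col-0 -Pi roots and 0.91 in Col-0 +Pi roots, a difference of 1.16. In crr it had 1.57 in -Pi roots and 1.31 in +Pi roots, a difference of 0.25, and its means were among the lowest of the family. On the scale of log2(CPM + 1) the Col-0 difference of AGP27 was 0.85, short of the limit. Below the limit, AGP10 was 0.72 higher in crr and 0.60 higher in Col-0, AGP2 0.70 and 0.39, and the low AGP5 0.56 and 0.87. The means of AGP5 were 1.46 log2 CPM in crr -Pi roots, 0.90 in crr +Pi roots, 1.09 in Col-0 -Pi roots and 0.22 in Col-0 +Pi roots. Over all classical AGPs, including those described next, the means summed to 1363 CPM in crr -Pi roots and 1047 CPM in crr +Pi roots. In Col-0 they summed to 1138 CPM in -Pi roots and 1050 CPM in +Pi roots.

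Other classical AGPs were lower or nearly level. AGP4, also called JAGGER and known from the pistil, had 7.24 log2 CPM in crr -Pi roots and 7.68 in crr +Pi roots, a difference of -0.44, and 6.73 in Col-0 -Pi roots and 7.78 in Col-0 +Pi roots, a difference of -1.04. AGP7 had 6.01 in crr -Pi roots and 6.09 in crr +Pi roots, a difference of -0.08, and 5.44 in Col-0 -Pi roots and 6.09 in Col-0 +Pi roots, a difference of -0.65. The remaining AGP1, AGP9, AGP25 and AGP26 lay within 0.21 log2 units of zero in both genotypes, although AGP9 was among the most abundant, with 8.55 log2 CPM in crr -Pi roots, 8.53 in crr +Pi roots, 8.21 in Col-0 -Pi roots and 8.41 in Col-0 +Pi roots. Of the 11 classical AGPs, 8 were above zero in crr and 7 in Col-0.

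Among the AG peptides the lower values stood out. AGP13 (AT4G26320, chromosome 4, 13317053 to 13317640) had 3.08 log2 CPM in crr -Pi roots and 3.92 in crr +Pi roots, a difference of -0.85, and 1.96 in Col-0 -Pi roots and 4.11 in Col-0 +Pi roots, a difference of -2.16, at which 0.4% of all genes were as low or lower. AGP14 (AT5G56540, chromosome 5, 22893151 to 22893651), whose mutants are annotated with longer root hairs, had 5.0 in crr -Pi roots and 5.89 in crr +Pi roots, a difference of -0.88, and 4.53 in Col-0 -Pi roots and 6.09 in Col-0 +Pi roots, a difference of -1.56. AGP21, linked to the fate of root hair cells, had 3.53 in crr -Pi roots and 4.09 in crr +Pi roots, a difference of -0.56, and 3.33 in Col-0 -Pi roots and 4.41 in Col-0 +Pi roots, a difference of -1.08. All 3 were thus past the 2-fold limit in Col-0 and short of it in crr. In crr 0 of the 10 AG peptides passed it, and 5.06% of all genes were higher and 3.62% lower. A count of 0 in 10 genes is not far from these shares. In Col-0, 3 of the 10 were lower, against 2.79% of all genes, and whether the genotypes differ in this was not tested.

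AGP22 was close to the limit in Col-0 at -0.92, with 5.09 log2 CPM in Col-0 -Pi roots and 6.01 in Col-0 +Pi roots, while in crr it differed by -0.16, with 5.54 in -Pi roots and 5.71 in +Pi roots. AGP12, whose sequence is like that of AGP21, lay above zero instead, with 5.59 in crr -Pi roots and 4.79 in crr +Pi roots, a difference of 0.80, and 5.36 in Col-0 -Pi roots and 5.03 in Col-0 +Pi roots, a difference of 0.33. The remaining AGP15, AGP16, AGP20, AGP24 and AGP41 lay between -0.42 and 0.33 in crr and between -0.23 and 0.16 in Col-0. The AG peptides summed to 435 CPM in crr -Pi roots and 421 CPM in crr +Pi roots, and to 378 CPM in Col-0 -Pi roots and 476 CPM in Col-0 +Pi roots.

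AGP30 (AT2G33790, chromosome 2, 14293561 to 14295353), a chimeric AGP known from roots, was the gene of the family with the lowest difference in crr. It had 5.86 log2 CPM in crr -Pi roots and 7.86 in crr +Pi roots, a difference of -2.0 (4.0-fold lower), and 6.00 in Col-0 -Pi roots and 7.54 in Col-0 +Pi roots, a difference of -1.54 (2.91-fold lower). AGP31, which carries the same kind of cysteine-rich domain, differed by -0.11 in crr and 0.09 in Col-0. Of the lysine-rich AGPs, AGP19 (AT1G68725, chromosome 1, 25809298 to 25810130), known from mutants with altered growth, had 1.97 in crr -Pi roots and 3.19 in crr +Pi roots, a difference of -1.22, and 1.59 in Col-0 -Pi roots and 3.03 in Col-0 +Pi roots, a difference of -1.44. AGP18, known from female gametogenesis, had between 5.97 and 6.03 log2 CPM in every group, and the low AGP17, known from the binding of Agrobacterium to roots, had 0.85 in crr -Pi roots, 0.54 in crr +Pi roots, 0.36 in Col-0 -Pi roots and 0.68 in Col-0 +Pi roots.

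Of the FLAs, 13 of 15 were below zero in each genotype, the exceptions being FLA6 and FLA18. FLA13 (AT5G44130, chromosome 5, 17760865 to 17762089) had 3.45 log2 CPM in crr -Pi roots and 5.16 in crr +Pi roots, a difference of -1.71 (3.28-fold lower), and 3.34 in Col-0 -Pi roots and 5.38 in Col-0 +Pi roots, a difference of -2.04 (4.10-fold lower). FLA6 and FLA13 belong to the same class and had coding sequences of 247 codons each, so the highest and 1 of the 2 lowest Col-0 differences of the family fell within FLA group A. FLA8 lay just short of the limit in both genotypes, with 6.88 in crr -Pi roots and 7.88 in crr +Pi roots, a difference of -0.99, and 6.83 in Col-0 -Pi roots and 7.83 in Col-0 +Pi roots, where the difference was also just under 2-fold.

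FLA11 and FLA12, known from the secondary walls of stems, were lower as well without reaching the limit. FLA11 had 3.70 log2 CPM in crr -Pi roots and 4.49 in crr +Pi roots, a difference of -0.79, and 3.69 in Col-0 -Pi roots and 4.60 in Col-0 +Pi roots, a difference of -0.91. FLA12 had 2.81 in crr -Pi roots and 3.65 in crr +Pi roots, a difference of -0.84, and 2.59 in Col-0 -Pi roots and 3.51 in Col-0 +Pi roots, a difference of -0.93. Beside them, 8 of 8 genes of secondary wall cellulose and xylem (CESA4, CESA7, CESA8, COBL4, XCP1, XCP2, LAC4 and LAC17) were below zero in both genotypes, with medians of -0.61 in crr and -0.59 in Col-0. Of these 8 genes 0 were past 2-fold, which is not far from the 3.62% in crr and 2.79% in Col-0 of all genes that were lower. Their means summed to 301 CPM in crr -Pi roots and 457 CPM in crr +Pi roots, and to 288 CPM in Col-0 -Pi roots and 443 CPM in Col-0 +Pi roots, with none at 0, and the part of xylem content in the FLA11 and FLA12 values was not tested.

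The abundant FLA9 had 7.99 log2 CPM in crr -Pi roots and 8.12 in crr +Pi roots, a difference of -0.13, and 7.65 in Col-0 -Pi roots and 8.25 in Col-0 +Pi roots, a difference of -0.60. FLA7 differed by -0.07 in crr and -0.28 in Col-0. In group B, FLA15, FLA16 and FLA17 were below zero and FLA18 above it in both genotypes, within a range of -0.45 to 0.17 in crr and -0.51 to 0.13 in Col-0. In group C, FLA1, FLA2 and FLA10 lay between -0.39 and -0.29 in crr and between -0.35 and -0.08 in Col-0, and FLA4, also called SOS5 and needed for root growth under salt, differed by -0.11 in crr and -0.07 in Col-0. Over the 15 FLAs the means summed to 1342 CPM in crr -Pi roots and 1636 CPM in crr +Pi roots, and to 1262 CPM in Col-0 -Pi roots and 1672 CPM in Col-0 +Pi roots.

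The differences of the genes were alike in both genotypes. Across the 41 genes the difference in crr and the difference in Col-0, which share no library, had Pearson's r of 0.917, against 0.843 across all 20017 genes, and the sign was the same in 36 of 41 genes (87.8%) against 74.7% of all genes. FLA6 had by far the highest difference in both genotypes, and r without it was not computed. The points are genes measured in the same libraries, not replicates, so no p is given. Of the 14 genes at -0.5 or below in Col-0, 13 had a less negative difference in crr, the exception being AGP30. Picking genes by a low value in Col-0 by itself favours a less negative value in crr, and of all 1737 genes picked in the same way 58.2% had one.

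Genes for the glycans of the family had small differences. The list of AGP glycan synthesis, made of prolyl 4-hydroxylases, galactosyltransferases, glucuronosyltransferases, fucosyltransferases and related enzymes, had 20 of 21 genes measured, and P4H13 was not analysed here. Of these, 0 were past 2-fold in any of the 5 comparisons. In the Pi comparison 5.06% of all genes were higher and 3.62% lower in crr, and 4.19% and 2.79% in Col-0. A count of 0 in 20 genes is not far from these shares. All 20 lay within 0.5 log2 units of zero in both genotypes, against 78.2% of all genes in crr and 81.2% in Col-0. The median Pi differences were 0.09 in crr and 0.01 in Col-0. The widest was that of GALT6, which adds galactose to hydroxyproline, with 4.51 log2 CPM in crr -Pi roots and 4.08 in crr +Pi roots, and 4.61 in Col-0 -Pi roots and 4.12 in Col-0 +Pi roots. The prolyl 4-hydroxylase P4H5 had 7.71 in crr -Pi roots and 7.31 in crr +Pi roots, and 7.62 in Col-0 -Pi roots and 7.35 in Col-0 +Pi roots. The 5 genes of primary wall cellulose (CESA1, CESA3, CESA6, COB and KOR1) were all slightly below zero, with medians of -0.20 in crr and -0.17 in Col-0.

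Root hair genes lay above zero, unlike most FLAs in both genotypes and most AGPs in Col-0. Of 11 (EXPA7, EXPA18, PRP1, PRP3, LRX1, LRX2, RHD6, RSL4, RSL2, COW1 and RHD2), 7 were higher in crr and 6 in Col-0, against 5.06% and 4.19% of all genes, with a median difference of 1.27 in both. Their means summed to 1849 CPM in crr -Pi roots and 593 CPM in crr +Pi roots, and to 1690 CPM in Col-0 -Pi roots and 585 CPM in Col-0 +Pi roots, with none at 0. Their part in the FLA6 and AGP3 values was not tested. The 5 markers of root tissue used (CASP1, SCR, SHR, WOX5 and PLT1) were all present and summed to 256 CPM in crr -Pi roots, 213 CPM in crr +Pi roots, 217 CPM in Col-0 -Pi roots and 212 CPM in Col-0 +Pi roots. The 4 green tissue genes measured (LHCB2.1, RBCS1A, PSBO1 and LHCA1) summed to 27.0 CPM in crr -Pi roots, 67.3 CPM in crr +Pi roots, 32.4 CPM in Col-0 -Pi roots and 63.0 CPM in Col-0 +Pi roots.

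The effect of the mutation was compared at each phosphate supply, as crr minus Col-0. The study reports that on -Pi plates crr had shorter primary roots and a smaller root meristem than Col-0, and on +Pi plates it did not. The part of root length and tissue content in the differences between genotypes was not tested. Without phosphate, AGP13 was the gene of the family past the limit, 2.17-fold higher in crr, at 3.08 log2 CPM in crr -Pi roots and 1.96 in Col-0 -Pi roots. On the scale of log2(CPM + 1) its difference was 0.95, short of the limit. With phosphate, 0 of 41 genes were past it. Among all genes, 0.629% were higher and 1.06% lower without phosphate, and 0.395% were higher and 0.56% lower with it. Among the genes with a group mean of at least 1 log2 CPM these shares were smaller, with 0.185% higher and 0.435% lower without phosphate and 0.0707% and 0.141% with it. A difference at least as high as that of AGP13 was found in 0.475% of all genes.

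Below the limit, most of the family lay slightly above zero in crr -Pi roots. Of the 41 genes 31 lay above zero without phosphate, against 48.4% of all genes, and 17 of 41 with phosphate, against 49.8%. The medians were 0.11 without phosphate and -0.03 with it, against -0.01 and -0.00 for all genes. The middle 95% of all genes spanned -0.68 to 0.56 without phosphate, and AGP13 and AGP7, at 0.57, lay outside it. Among the genes with a group mean of at least 1 log2 CPM the span was narrower, -0.54 to 0.43, and AGP4, AGP14 and AGP22 lay outside that one as well. AGP4 was at 0.51, AGP17 at 0.49, AGP14 at 0.48, AGP22 at 0.46, AGP19 at 0.38, AGP5 at 0.37, and FLA9, AGP9 and FLA6 at 0.33 or 0.34. The lowest was AGP27 at -0.50, with 1.57 in crr -Pi roots and 2.07 in Col-0 -Pi roots.

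The AG peptides lay mostly on opposite sides of zero on the 2 media. Of the 10, 8 were above zero without phosphate, with a median of 0.22, and 0 of 10 with phosphate, where the median was -0.20 and the range -0.32 to -0.04. AGP20, at -0.04, and AGP41, at -0.35, were below zero without phosphate too. Summed, the AG peptides came to 435 CPM in crr -Pi roots against 378 CPM in Col-0 -Pi roots, and to 421 CPM in crr +Pi roots against 476 CPM in Col-0 +Pi roots. All 6 genes of FLA group A lay above zero without phosphate, between 0.01 and 0.34, and 5 of 6 lay below zero with it, the exception being FLA12 at 0.14. Groups B and C held 2 of 4 genes each on either side of zero without phosphate. Of the root tissue markers, CASP1, for a protein of the Casparian strip in the endodermis, was 0.43 higher in crr -Pi than in Col-0 -Pi roots. In the same comparison PLT1 was at 0.22, SCR at 0.09, SHR at 0.03 and WOX5 at -0.21. The part of tissue content in the AG peptide values was not tested.

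**Figure D4:**
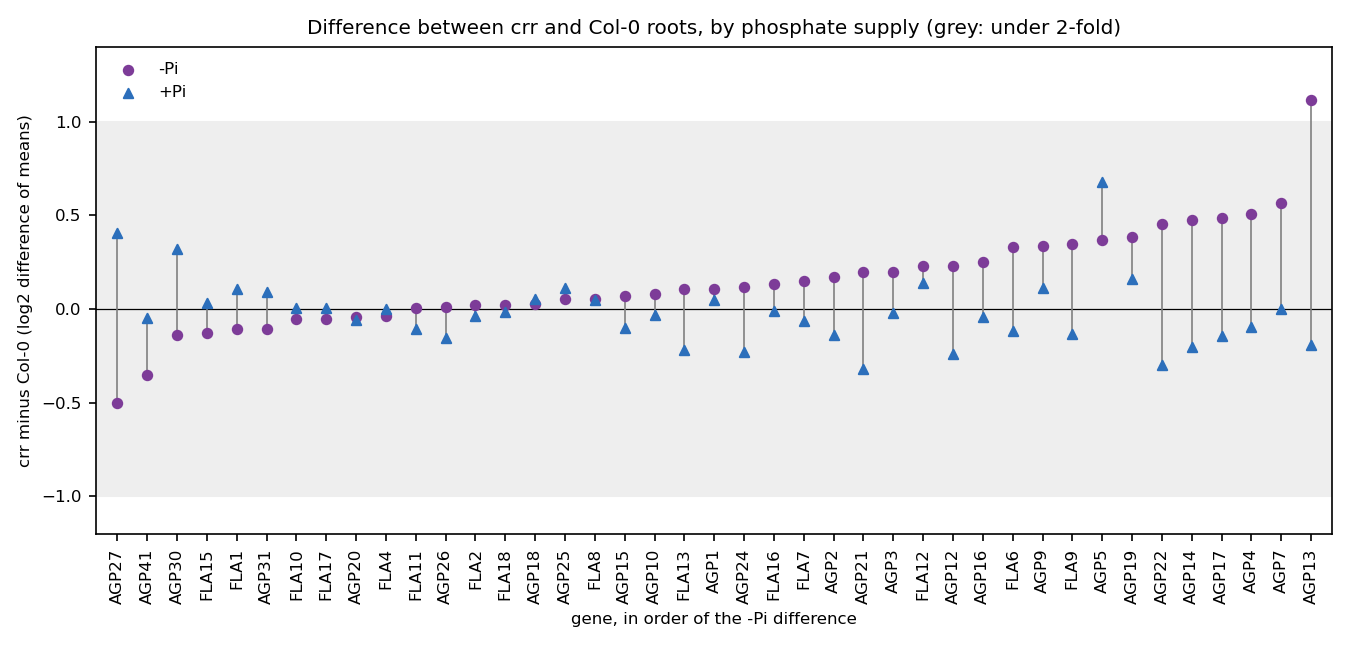
Difference between crr and Col-0 roots (vertical axis, log2) for the 41 genes in order of the -Pi value, with purple circles for -Pi, blue triangles for +Pi and a line joining the pair of values of a gene. The grey band holds differences under 2-fold, and AGP13 lies outside it without phosphate, at 1.12, and inside it with phosphate, at -0.19.

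The last comparison took the Pi difference of crr minus the Pi difference of Col-0, and it draws on all 4 groups and thus on the values above. AGP13 was past the limit at 1.31, a 2.48-fold change, and 0 members were past it in the other direction, against 1.47% and 1.51% of all genes and 0.566% and 0.604% of those with a group mean of at least 1 log2 CPM. A value at least as high as that of AGP13 was found in 0.744% of all genes. The next were AGP22 at 0.76, AGP14 at 0.68, AGP17 at 0.63, AGP4 at 0.61, AGP7 at 0.57 and AGP21 at 0.52. Of the 41 genes 29 were above zero, with a median of 0.15, against 48.2% of all genes and a median of -0.01, and of the AG peptides 9 of 10 were. AGP27 at -0.91 and AGP30 at -0.46 were the lowest.

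For genes near the 2-fold limit a small change of the means would alter the counts. In Col-0, AGP4 at -1.04, AGP21 at -1.08 and AGP27 at 1.16 were the closest past it in the Pi comparison, and FLA8, FLA12 at -0.93 and AGP22 at -0.92 the closest short of it. In crr, AGP19 at -1.22 was the closest past it, and FLA8 at -0.99, AGP14 at -0.88 and AGP13 at -0.85 the closest short of it. Between genotypes the closest short of it were AGP7 at 0.57 without phosphate and AGP5 at 0.68 with it.

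The reads of 8 members could not be assigned to their strand from what the sources state, because these genes overlap a gene on the opposite strand and the strand setting of the counting is not given in the sources used here. They are AGP21, FLA16, AGP19, AGP26, AGP4, AGP10, AGP16 and FLA11. Among them AGP21, AGP19 and AGP4 are counted as lower in Col-0, and without the 8 genes 4 of 33 members were lower there. AGP3, AGP13, AGP14, AGP30, FLA6 and FLA13 have no such overlap.

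The sequence GNATATNC, known as P1BS and bound by PHR1, the central regulator of phosphate starvation genes, was searched for upstream of each coding gene in RefSeq. It reads the same on both strands. It was found in the 250 bases upstream of 2 of 41 genes, AGP9 and AGP17 (4.88%), against 5.46% of 27443 windows of that length. In 1000 bases it was found upstream of 7 of 41 genes (17.1%), namely AGP7, AGP9, AGP12, AGP17, FLA2, FLA13 and FLA17, against 20.3%. FLA6 and AGP3 had no match in either window, which says only that these letters were not in it.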

How the data were processed

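Root RNA of 12 libraries in 4 groups was sequenced, and groups were taken from the sample labels. Per the study's methods and the submitters' processing notes, reads were trimmed with cutadapt 1.8, freed of ribosomal and low-complexity reads, aligned to TAIR10 with STAR 2.5.3a and counted per gene with HTSeq 0.9.1, and RSEM 1.2.31 is listed too. Genes that reached 1 CPM in some sample were kept by the authors, and TMM factors from edgeR 3.24.3 scaled the library sizes. The deposited values used here are log2 CPM, as the authors' mean over the 3 libraries of each group. Neither the strand setting nor the prior count is given in the sources used here. For RNA extraction, a column kit stands in the labels and another reagent in the methods. The 3 libraries of a group are called biological replicates in the methods, each from pooled seedlings.

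The authors' own comparisons, in 5 tables with fold changes, p-values and adjusted p-values, were not used. The model over single libraries that had been planned was replaced by differences of group means with no test, since the table used holds group means. Sums of CPM are sums of 2 to the power of the group means. Differences, medians and shares were computed with Python 3.11.15, pandas 2.3.3 and numpy 2.4.6. The code for the differences was tested on simulated data by counting genes past 2-fold, and the other steps were not tested in this way. The limit was 2-fold, and alternatives were a limit of 1.5-fold, log2(CPM + 1), centring on the median of all genes, a minimum of 1 log2 CPM and AGPs or FLAs alone. Exon lengths (union of all exons of a gene), coding sequences and upstream windows came from RefSeq TAIR10.1, where 41 of 41 members matched. Codons were counted in the longest coding sequence. Sequences of AG peptides were aligned with Biopython 1.88.

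Members, classes, 8 gene lists and limits were chosen with earlier results of these data known, and 1 listed gene is not reported here. Genes were described with their 4 means where they were past 2-fold in any of 5 comparisons, among the 10 with the highest level per kb, or among the 3 nearest to 2-fold on either side. Further members were described to account for all 41, and these were chosen with their values in view.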

Additional observations from a re-analysis of the deposited data

How the results depend on the processing

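With a limit of 1.5-fold in place of 2-fold, 5 members were higher and 8 lower in crr -Pi than in crr +Pi roots (9.81% and 8.34% of all genes), and 5 were higher and 13 lower in Col-0 -Pi than in Col-0 +Pi roots (8.46% and 7.18%). At that limit 1 member was higher in crr +Pi than in Col-0 +Pi roots (1.34% of all genes), and for the difference of the Pi differences 5 were above it and 1 below it (4.28% and 4.26%). On the log2(CPM + 1) scale, which shrinks the differences of low genes, 0 members were higher in crr -Pi than in Col-0 -Pi roots, since AGP13 was at 0.95, and the share of all genes was 0.0649% in place of 0.629%. On that scale the lower share of all genes in Col-0 was 1.29% in place of 2.79%, and AGP27 was at 0.85 in the Pi comparison of Col-0. Taken alone, the 26 AGPs gave 1 higher and 2 lower members (7.69%) in crr for the Pi comparison, and 2 higher and 6 lower (23.1%) in Col-0. The 15 FLAs alone gave 1 higher and 1 lower member (6.67%) in crr, and 1 higher and 1 lower (6.67%) in Col-0. For the genotype comparison without phosphate and for the difference of the Pi differences they gave 0. That count could not be otherwise, since AGP13 was the member past the limit in both. Without the 8 members overlapped on the opposite strand, an alternative chosen after seeing the data, 4 members were lower in Col-0. Centring on the median of all genes and a minimum of 1 log2 CPM left all 10 counts within 1.5 times of their value. With centring, 8 members in place of 7 were lower in Col-0 -Pi than in Col-0 +Pi roots (2.92% of all genes). Keeping only names without a suffix could not change a count, because no member has a suffix. No paired analysis was possible because only group means are in the table used, and for the same reason leaving out single libraries was not run. Without library values, read depth or errors, small differences and low genes such as AGP5, AGP17 and AGP27 cannot be set against the spread between libraries.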
